A study of Mus musculus with 4 samples.

Results

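Levels of 9 chemokine and chemokine receptor genes were compared in sorted palatal mesenchyme of mouse embryos with and without *Foxf2*, out of 22096 genes in the files. The 9 genes were the ligands *Pf4*, *Cxcl12*, *Cxcl14*, *Cxcl1*, *Cxcl10*, *Ccl2* and *Cx3cl1* and the receptors *Cxcr4* and *Cxcr7*. They were found by gene symbol. *Pf4* was chosen by its fall in the *Foxf2*-/- embryos of these same data, so its difference is given as a description with no test, and the other 8 genes are the comparison. RNA-seq was made from 4 littermate embryos at E13.5 of mixed strain background, all of which carried 1 copy of *Osr2*RFP, a red fluorescent reporter in the *Osr2* locus. The controls were 1 embryo with both *Foxf2* alleles intact (*Osr2*RFP/+) and 1 heterozygous embryo (*Foxf2*+/-*Osr2*RFP/+), and the mutants were 2 *Foxf2*-/-*Osr2*RFP/+ embryos. Palates were digested with trypsin, cells with RFP were collected by flow sorting, and each embryo gave its own library. The *Foxf2* allele is a germline null, so every cell of a mutant embryo lacked the gene, while the sort kept cells with RFP from the *Osr2* locus.

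Chemokines are small secreted proteins that steer cell movement by binding G protein-coupled receptors, and most are grouped by the spacing of their first 2 cysteines. *Cxcl12* acts through *Cxcr4*, while *Cxcr7* (now *Ackr3*) binds and removes *Cxcl12* without the usual G protein signal. *Pf4*, platelet factor 4, is stored in the granules of megakaryocytes and platelets and is also made by some tissue macrophages. In mesenchyme, *Cxcl12* is widely made by stromal cells.

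The short stretch of coding sequence around the class-defining cysteine codons is printed for all 7 ligands from the mm9 genome and its GENCODE M1 annotation. Each pair was located by the spacing known for the ligand's class, so the spacing is a description and not a result. The 2 cysteine codons are in capitals.
Pf4, chr5:91201961-91201987, plus strand, exon 2 of 3: gatcttagcTGTgtgTGTgtgaagacc
Cxcl12, chr6:117121517-117121543, plus strand, exon 2 of 3: agctaccgaTGCcccTGCcggttcttc
Cxcl14, chr13:56397267-56397471, minus strand, spliced across exons 1 and 2 of 4: gggtccaagTGTaagTGTtcccggaag
Cxcl1, chr5:91320513-91320539, plus strand, exon 2 of 4: gagctgcgcTGTcagTGCctgcagacc
Cxcl10, chr5:92777198-92777224, minus strand, exon 2 of 4: acggtccgcTGCaacTGCatccatatc
Ccl2, chr11:81849999-81850022, plus strand, exon 2 of 3: ccactcaccTGCTGCtactcattc
Cx3cl1, chr8:97301942-97301974, plus strand, exon 2 of 3: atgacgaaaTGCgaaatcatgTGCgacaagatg
By that choice 1 codon stands between the cysteine codons in the 5 CXC ligands, the codons are adjacent in *Ccl2*, and 3 codons lie between them in *Cx3cl1*. *Cxcl1* alone among the 7 had the codons for Glu-Leu-Arg just before its first cysteine, a feature of CXC ligands that attract neutrophils.

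Values are FPKM, fragments scaled for transcript length and for mapped fragments of the library, summed over the transcript entries of a gene. Differences are on the log2(FPKM + 0.1) scale, which understates the change of low genes. The target gene followed the labels: *Foxf2* stood at 85.4 FPKM with both alleles intact, at 45.1 in the heterozygote, and at 1.41 and 2.28 in the mutants. All 14 listed genes of palatal mesenchyme, *Osr2* among them, were above the filter, with *Vim*, *Col1a1* and *Six2* the highest, and their summed FPKM lay between 1386 and 1563. Read numbers were not in the files used here, so depth in reads is unknown. The ratio of coverage to FPKM put the libraries within 1.19 times of each other in depth. The filter for testing was 1 FPKM or more in any of the embryos, and 11571 genes met it. Of the 9 members 3 passed, *Pf4*, *Cxcl12* and *Cxcr7*, and the other 6 were below 1 FPKM in every embryo. With 2 embryos against 2, an exact two-sided permutation test cannot give a p below 0.333, so limma, which borrows the spread from all genes, was used.

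*Pf4* lies at chr5:91201461-91202409 (mm9) in a single entry of 588 bases. The *Foxf2*+/+ embryo had an FPKM of 4.28 and the *Foxf2*+/- embryo 5.69, whereas the mutants had 0.684 and 2.86. Both mutant embryos were below both controls, but they were also far apart, with the second 4.19 times as high as the first. The means were 4.99 ± 0.997 in controls and 1.77 ± 1.54 in mutants (SD, n = 2 each). The mean log2 difference was -1.72, a 3.31-fold lower level. Against the *Foxf2*+/+ embryo alone it was -1.52 and against the *Foxf2*+/- embryo alone -1.93, while the controls differed from each other by 0.40 and the mutants by 1.92. The gap between the 2 mutants was therefore larger than the mean gap between mutants and controls. On the same scale the *Foxf2*+/+ embryo was 5.59-fold above the first mutant and 1.48-fold above the second. The *Foxf2*+/- embryo was 7.39-fold above the first mutant and 1.95-fold above the second. Without the first *Foxf2*-/- embryo the mean difference was -0.77, and the difference from the *Foxf2*+/+ embryo was -0.56, a 1.48-fold lower level. In such bulk RNA, fewer cells of a type and less RNA per cell cannot be told apart.

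**Figure D1:**
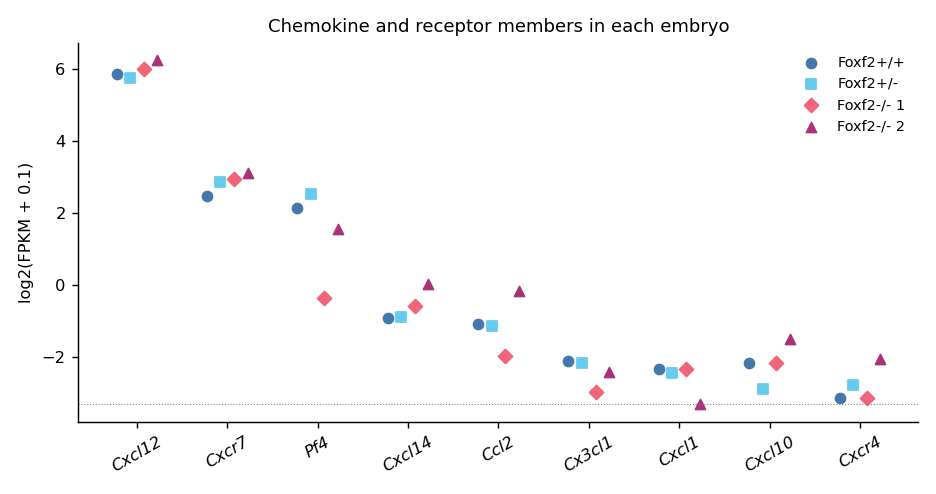
The 9 chemokine and receptor genes in each of the 4 embryos, as log2(FPKM + 0.1), ordered from left to right by their mean level in the controls; the dotted line is an FPKM of 0. *Cxcl12* stood far above the rest, and the 2 *Foxf2*-/- points of *Pf4* (FPKM 0.684 and 2.86) lay below both of its control points.

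The study's limit of 1.5-fold was applied to the mutant mean against either control, and a gene past it on the same side of both is called changed against both controls here. *Pf4* was the only 1 of the 3 tested members past it, and without the first *Foxf2*-/- embryo 0 members were. Over all tested genes 115, or 0.994%, were lower than both controls, and 101, or 0.873%, were higher. *Pf4* ranked 11th of 11571 by the size of its fall, a position that reflects how it was chosen. limma called 7 of the 11571 genes at an adjusted p under 0.05 with a change of more than 1.5-fold, or 0.0605%, and 1506 had an unadjusted p under 0.05. None of the 7 was a member. *Cxcl12* and *Cxcr7*, the tested members that were not chosen by their change, were both among the genes with an unadjusted p under 0.05.

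Because *Pf4* has 1 short entry and a low level, few reads lie behind each value. Coverage multiplied by length gives bases, and in 433 of 1071 low genes with a single entry all embryos lay at whole multiples (within 0.06) of the lowest value. Among all low values of genes with a single entry, 50 to 60 bases was the most common. A range of 40 to 70 bases per read was taken. The *Cxcr4* values of 33.1 bases for *Foxf2*+/+ and 33.0 for the first *Foxf2*-/- embryo lay below this range. On that range the *Pf4* values correspond to 49 to 85 reads for *Foxf2*+/+, 77 to 135 for *Foxf2*+/-, 8 to 14 for the first *Foxf2*-/- embryo and 37 to 65 for the second. These are estimates, and the lowest of the 4 embryos rests on the fewest reads.

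The promoter of *Pf4* is shown since it is the member that differs most. It is the RefSeq window of 250 bases before to 50 after the start, chr5:90772185-90772484 on the plus strand of GRCm38.p6, a later build than that of the expression files. The motifs searched for on both strands were the forkhead letters TAAACA, the GATA letters AGATAA and the ETS letters GGAAGT, and matches are in capitals.
Pf4 promoter: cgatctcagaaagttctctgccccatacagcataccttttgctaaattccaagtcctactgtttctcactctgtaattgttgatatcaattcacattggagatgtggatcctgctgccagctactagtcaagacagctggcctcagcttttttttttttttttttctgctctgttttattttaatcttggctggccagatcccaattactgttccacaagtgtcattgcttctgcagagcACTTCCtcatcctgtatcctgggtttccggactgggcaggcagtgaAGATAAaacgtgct
The window held the ETS letters once, on the minus strand, and the GATA letters once, and it did not hold the forkhead letters. Of 32851 RefSeq promoters of this length, 13.4% held the forkhead letters, 11.2% the GATA letters and 23.8% the ETS letters. A match is only a description of these letters, and a window without a match says nothing of where a factor binds. Of the 9 members 8 had a promoter in the table.

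*Cxcl12* was by far the highest member. Its gene spans chr6:117118553-117131386, and its FPKM was 58.7 and 53.8 in controls, compared with 64.0 and 76.5 in mutants. Both mutants were above both controls, with means of 56.2 ± 3.46 and 70.3 ± 8.87 (SD, n = 2 each). The mean log2 difference was 0.32, a 1.25-fold higher level, with a standard error of 0.11, and it did not pass the test (limma, adjusted p = 0.332). Among all tested genes 10.2% had both mutants above both controls, and 35.5% had both below.

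The 3 transcript entries of *Cxcl12* differ in length and were estimated separately. The entry of 3173 bases held the most FPKM, with 38.5 and 34.7 in controls, compared with 44.9 and 49.7 in mutants. The entry of 1878 bases had 17.6 and 16.1 in controls, compared with 16.5 and 23.3 in mutants, so its values overlapped. The entry of 5670 bases had 2.56 and 2.95 in controls, compared with 2.65 and 3.54 in mutants, and these overlapped too. The entry of 3173 bases took 65.7% and 64.6% of the gene's FPKM in controls, compared with 70.1% and 64.9% in mutants, and the first mutant had the highest share.

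**Figure D2:**
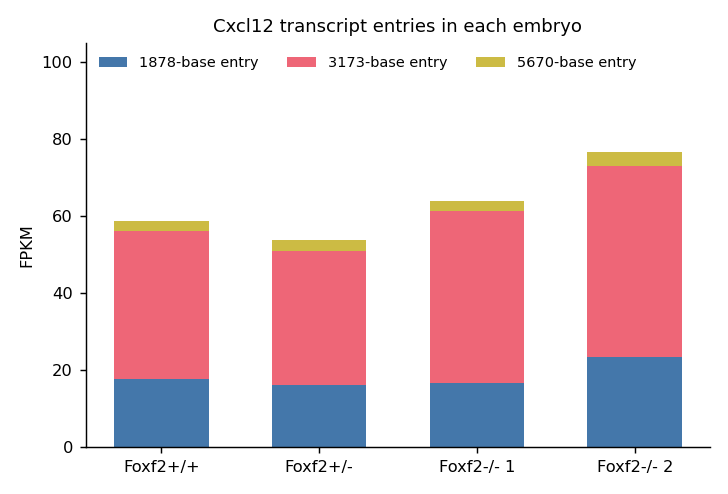
FPKM of the 3 *Cxcl12* transcript entries in each embryo, stacked so that the bar height is the gene's summed FPKM. The entry of 3173 bases made up most of each bar, between 64.6% and 70.1%.

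The remaining ligands were near the lower limit of what these libraries could measure. *Cxcl14*, an epithelial and stromal CXC ligand at chr13:56390006-56397912, had an FPKM of 0.430 and 0.441 in controls, compared with 0.560 and 0.922 in mutants. It was higher in both mutants than in both controls, with a log2 difference of 0.62, and more than 1.5-fold higher than each control, but it was below 1 FPKM and not tested. *Cx3cl1*, a membrane-bound ligand that draws *Cx3cr1*-positive cells, had 0.129 and 0.124 in controls, compared with 0.0279 and 0.0860 in mutants, a log2 difference of -0.55 and lower in all 4 pairs. Just inside the 1.5-fold limit of 0.585 (log2) stood *Cxcl14*, whose smaller difference was 0.60, and just outside it stood *Cx3cl1*, whose smaller difference was 0.54 in size.

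*Ccl2*, which attracts monocytes, had an FPKM of 0.369 and 0.356 in controls, compared with 0.155 and 0.782 in mutants. Its 2 mutant values lay on either side of the controls, so the log2 difference of 0.04 describes neither. *Cxcl10*, an interferon-induced ligand, had 0.124 and 0.0348 in controls, compared with 0.121 and 0.250 in mutants, and the groups overlapped. *Cxcl1* had 0.0987 and 0.0826 in the controls and 0.0970 in the first mutant, and was listed at 0 in the second, and each of the other 3 embryos held the equivalent of 2 to 3 reads. No difference in *Cxcl1* was detectable at this depth.

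Both receptors answer to *Cxcl12*. *Cxcr7*, the scavenging receptor at chr1:92100578-92112863, had an FPKM of 5.42 and 7.14 in controls, compared with 7.66 and 8.62 in mutants. Both mutants were above both controls, with a log2 difference of 0.38, but the gap to the *Foxf2*+/- embryo alone was 0.19 and to the *Foxf2*+/+ embryo 0.58, and it did not pass the test (limma, standard error 0.15, adjusted p = 0.354). *Cxcr4*, the signalling receptor, had 0.0134 and 0.0454 in controls, compared with 0.0131 and 0.138 in mutants, and these overlapped. In these sorted cells *Cxcl12* and *Cxcr7* were measured at levels well above *Cxcr4*, which was close to the smallest value a library could show.

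By mean FPKM per length in the controls, the order was *Cxcl12* at 56.2, *Cxcr7* at 6.28, *Pf4* at 4.99, *Cxcl14* at 0.435, *Ccl2* at 0.363, *Cx3cl1* at 0.126, *Cxcl1* at 0.0907, *Cxcl10* at 0.0793 and *Cxcr4* at 0.0294. The ranges of *Cxcr7* and *Pf4* overlapped, as did those of *Cxcl1*, *Cxcl10* and *Cxcr4* with their neighbours, so those places in the order are not firm.

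**Figure D3:**
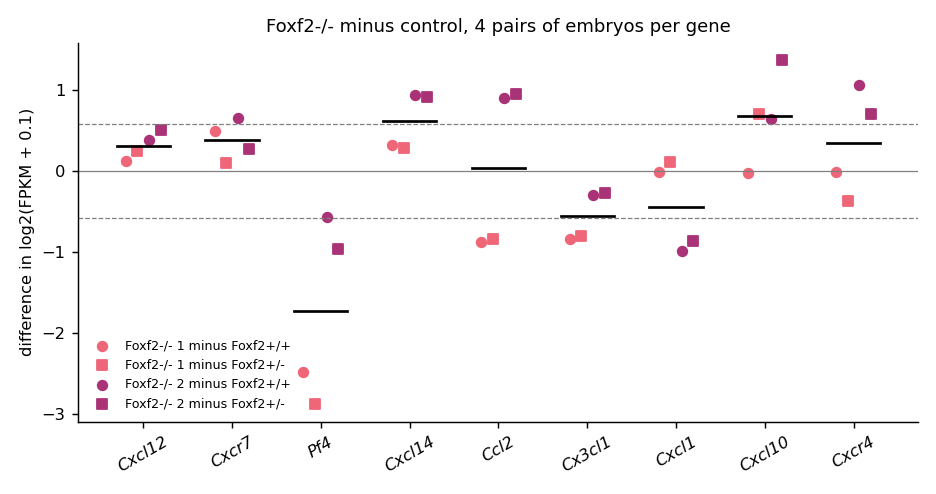
Log2 difference in log2(FPKM + 0.1) for each of the 4 pairs of a *Foxf2*-/- embryo and a control, for each member; the black bar is the mean difference and the dashed lines mark 1.5-fold. The points of *Pf4* all lie below 0 but are spread between the 2 mutant embryos, and *Cxcl12* and *Cxcr7* lie close above 0.

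The wider chemokine system was given by lists of ligands, receptors and genes of signalling and turnover. Outside the members, 76 genes were in the files and 21 were tested. limma called 0 of the 21, beside 7 of all 11571 genes tested (0.0605%). In limma 3 of the 21 had an unadjusted p under 0.05, beside 1506 of the 11571. The median log2 difference of the 21 was -0.10, beside -0.08 over all genes tested. Of the 21, 1 was changed against both controls, beside 0.873% higher and 0.994% lower over all genes tested. All but 11 of the 67 ligands and receptors in the files were under the filter, and 9 of 40 ligands were listed at 0 in every embryo.

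Among the ligands, *Ccl27a* had an FPKM of 24.5 and 30.6 in controls, compared with 21.7 and 29.2 in mutants, a gene with near-identical copies whose reads cannot be assigned with certainty (limma, adjusted p = 0.786). *Cxcl5*, which like *Cxcl1* attracts neutrophils and lies 10810 bases from *Pf4*, had 1.56 and 0.951 in controls, compared with 0.643 and 0.780 in mutants, with a log2 difference of -0.71 that did not pass the test (limma, adjusted p = 0.420). Both its mutant values were below both of its controls, and it reached the filter only through the *Foxf2*+/+ embryo. *Ccl12*, a monocyte attractant, had 0.782 and 0.884 in controls, compared with 0.686 and 1.45 in mutants. *Ccl25*, a ligand for thymocytes and gut lymphocytes, had 0.694 and 1.77 in controls, compared with 1.15 and 0.885 in mutants. Both of these overlapped (limma, adjusted p = 0.819 and 0.919).

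Among the receptors, *Cmklr1*, which binds chemerin, was the 1 gene of the 21 changed against both controls. Its FPKM was 0.210 and 0.606 in controls, compared with 0.883 and 1.45 in mutants, a log2 difference of 1.40 that did not pass the test (limma, adjusted p = 0.334). *Cmklr1* reached the filter only through the second *Foxf2*-/- embryo, so its place among the tested genes depended on the group where it was high. *Darc*, the Duffy antigen that binds many chemokines, had 8.50 and 5.98 in controls, compared with 4.90 and 7.08 in mutants, which overlapped (limma, adjusted p = 0.621). *Cxcr2*, the receptor for *Cxcl1* and *Cxcl5*, had 1.38 and 1.56 in controls, compared with 1.71 and 1.90 in mutants (limma, adjusted p = 0.581). *Cx3cr1*, the receptor for *Cx3cl1*, had 0.669 and 1.26 in controls, compared with 1.05 and 1.32 in mutants, which overlapped.

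In the signalling and turnover list, 13 of 18 genes passed the filter and 6 of these had both mutants below both controls, a share to be read beside the 35.5% over all genes. *Adam10*, a protease that releases *Cx3cl1* from the membrane, had an FPKM of 7.89 and 7.48 in controls, compared with 5.82 and 6.23 in mutants, a log2 difference of -0.35 (limma, adjusted p = 0.301). *Mif*, a cytokine that can bind *Cxcr4*, had 171 and 176 in controls, compared with 144 and 172 in mutants. *Gnai1*, *Gnai3*, *Grk6*, *Adam17* and *Cmtm7* were the other genes of the list with both mutants below both controls, and the *Cmtm7* values were 9.36 and 7.89 in controls, compared with 7.09 and 6.45 in mutants. *Mif*, *Gnai2*, *Arrb1*, *Arrb2*, *Adrbk1*, *Cklf* and *Cmtm3* overlapped between the groups. The 13 adjusted p-values ran from 0.301 to 0.988 (limma).

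**Figure D4:**
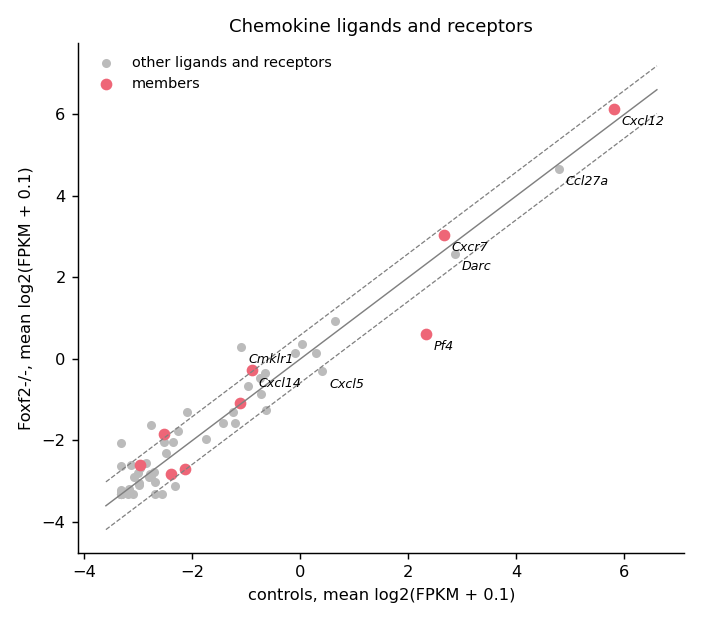
Mean log2(FPKM + 0.1) of the 67 chemokine ligands and receptors in the *Foxf2*-/- embryos against the controls, one point per gene. *Cxcl12* lies far to the upper right at a control FPKM of 56.2, and *Pf4* lies below the line of equal levels.

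*Pf4* lies in a row of CXC ligand genes on chromosome 5. Within 200 kb of it were 6 other CXC ligand genes, *Cxcl5*, *Ppbp*, *Cxcl3*, *Cxcl15*, *Cxcl1* and *Cxcl2*, and 11 CXC ligand genes were on the chromosome in all. *Ppbp*, a platelet chemokine 2375 bases away, had an FPKM of 0.0356 and 0.0592 in controls, compared with 0.208 and 0.245 in mutants. That direction was opposite to that of *Pf4*, at levels under the filter. *Cxcl2*, also under the filter, had 0.0763 and 0.125 in controls, compared with 0 and 0.0331 in mutants. Both *Cxcl2* and *Cxcl5* were lower in both mutants than in both controls, whereas *Cxcl3*, *Cxcl15* and *Cxcl1* overlapped.

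Markers of macrophages and of megakaryocytes and platelets, the cells best known for *Pf4*, were set beside it. The summed FPKM of 23 macrophage markers was 34.2 and 47.7 in controls, compared with 35.2 and 53.4 in mutants, so the groups overlapped. Of these markers 12 were tested and limma called 0, with 0 at an unadjusted p under 0.05, beside 7 and 1506 of all 11571 genes tested. *Csf1r*, the receptor that macrophages depend on, had 1.91 and 2.50 in controls, compared with 2.56 and 2.97 in mutants, and *C1qb*, the highest of the list and a complement subunit made by macrophages, had 7.75 and 9.87 in controls, compared with 6.16 and 9.77 in mutants. The next highest, *C1qc* and *Fcer1g*, also overlapped between the groups.

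*Pf4* equalled 12.5% and 11.9% of the summed macrophage markers in controls, compared with 1.94% and 5.37% in mutants. Since *Pf4* was chosen by its fall, the lower share in mutants restates that choice and is not a separate result. The summed level of 17 platelet and megakaryocyte markers was 10.8 and 11.4 in controls, compared with 14.2 and 14.1 in mutants, of which *Thbs1*, also made by mesenchyme and other cells, contributed 7.71, 8.22, 11.5 and 11.0. Without *Thbs1*, a sum chosen after the values were seen, the list came to 3.07 and 3.20 in controls, compared with 2.70 and 3.09 in mutants, so the groups overlapped.

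Single platelet markers went different ways. *Itgb3*, the integrin chain of the platelet fibrinogen receptor and the only other tested gene of the list, had 1.57 and 1.34 in controls, compared with 1.09 and 1.09 in mutants (limma, adjusted p = 0.525). *Itga2b*, its partner chain, had 0.167 and 0.106 in controls, compared with 0.0599 and 0.0133 in mutants, and *Gp5*, a platelet glycoprotein, had 0.155 and 0.0332 in controls and was listed at 0 in both mutants. These 3 of the 17 genes were lower in both mutants than in both controls, while *Thbs1* and *Ppbp* were higher and 12 overlapped. Of the 17, 2 were at 0 in every embryo and 7 were below 0.1 in every embryo. Of the 23 macrophage markers, *Aif1* and *Lyve1* were lower in both mutants, *Csf1r* was higher and 20 overlapped. These counts are to be read beside all tested genes, of which 35.5% had both mutants below both controls and 10.2% both above. Under the filter were 15 of the 17 platelet and megakaryocyte markers and 11 of the 23 macrophage markers. The part of these cells in the *Pf4* result was not tested.

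**Figure D5:**
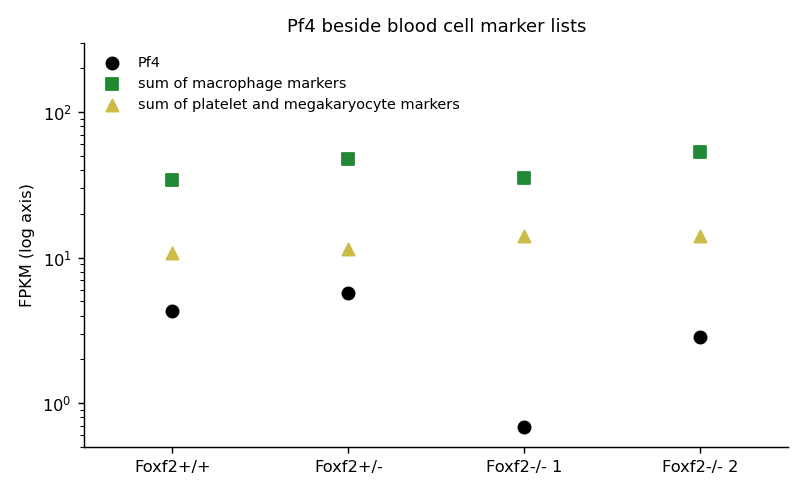
FPKM on a log axis of *Pf4*, of the summed macrophage markers and of the summed platelet and megakaryocyte markers in each embryo. *Pf4* was lowest in the first *Foxf2*-/- embryo at 0.684. The macrophage sum was 34.2 for *Foxf2*+/+ and 47.7 for *Foxf2*+/-, compared with 35.2 and 53.4 for the first and second *Foxf2*-/- embryo.

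Markers of blood and other cells were present in the sorted fraction as well. The summed FPKM of the erythroid list was 299 for *Foxf2*+/+ and 1841 for *Foxf2*+/-, against 1600 and 4378 for the mutants, most of it from the embryonic globins *Hbb-y* and *Hba-x*. The *Foxf2*+/+ embryo was the lowest for this sum, and the mutants overlapped with the *Foxf2*+/- embryo. Of 36 tested marker genes of macrophages, platelets and other cell types 4 were more than 1.5-fold higher than both controls and 1 was lower. Over all genes tested 0.873% were higher and 0.994% lower. Of the 10 tested erythroid markers 3 were higher and 0 lower. Of the 36 limma called 0, with 6 at an unadjusted p under 0.05, beside 7 and 1506 of all 11571 genes tested. Without the *Foxf2*+/- embryo it called 5, which were *Alas2*, *C1qa*, *Hba-a2*, *Hbb-b1* and *Hbb-b2*. *C1qa*, the macrophage marker among them, had 0.228 for *Foxf2*+/+ and 1.89 for *Foxf2*+/-, against 2.45 and 1.85 for the mutants. The part of the erythroid cells in the *Pf4* result was not tested.

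The genes most like *Pf4* over the 4 embryos were found by the smallest Euclidean distance between values of log2(FPKM + 0.1) centred on each gene's mean, among the 11571 tested. The nearest were *H2-Q7* at a distance of 0.621, *Ldoc1* at 0.801 and *Fam162b* at 0.855, followed by *Rhbdf2* at 0.891 and *Pomc* at 0.913. *0610040B10Rik*, *Flywch2*, *Cmtm5*, *Slc15a2* and *Lst1* completed the 10, the last at 1.09. None of the 10 was on the chemokine or marker lists. All 10 were lowest in the first *Foxf2*-/- embryo, a feature that reflects how they were picked, since *Pf4* was lowest there too. *H2-Q7*, a class I histocompatibility gene, had an FPKM of 1.19 and 0.838 in controls, compared with 0.0832 and 0.508 in mutants. Both mutants were likewise below both controls for *Ldoc1*, *Pomc*, *Slc15a2* and *Lst1*. For *Fam162b*, *Rhbdf2*, *0610040B10Rik*, *Flywch2* and *Cmtm5* the second mutant lay between the controls. *Flywch2*, for example, had 7.22 and 7.69 in controls, compared with 2.41 and 7.37 in mutants.

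Scaling between embryos moves all values together, so the members were recomputed after rescaling. With median ratios or quantile normalization *Pf4* was lower by 1.66 on the log2 scale, and no member's mean difference changed sign. With median ratios both mutants were above both controls for *Cxcl10*, whose groups overlapped without rescaling and with quantiles. The split of genes changed against both controls moved more, from 53.2% lower to 41.4% with median ratios and 43.3% with quantiles. The share of all genes with both mutants below both controls fell from 35.5% to 22.6% and 21.9%. The share with both mutants above both controls, as for *Cxcl12*, rose from 10.2% to 19.9% and 20.4%.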

How the data were processed

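RNA-seq libraries from RFP-positive palatal cells of 4 embryos were analysed. The authors mapped the reads on mm9 by Tophat with Bowtie (version 0.12.7 and the build per the submitters' processing notes) and deposited FPKM and coverage signal for each of 28107 RefSeq entries and each embryo, in tables of the form Cufflinks writes. The version of the FPKM estimator was not given in the sources used here. FPKM was summed by gene symbol over entries of 200 bases or longer, because short entries give unstable values, and 10 genes with a failed estimate were left out. Genes with at least 1 FPKM in at least 1 embryo were tested by limma 3.58.1 (R 4.3.3) with a variance trend on log2(FPKM + 0.1), two-sided, with Benjamini-Hochberg adjustment over all 11571 genes tested. The 2 *Foxf2*-/- embryos were compared with the 2 controls together in limma and with each control by fold, since the study used both as controls. Changes were called at an adjusted p of 0.05 and 1.5-fold. Tables were handled with Python 3.11.15, pandas 2.3.3 and numpy 2.4.6, and figures drawn with matplotlib 3.10.9. The limma script was tested on simulated data. Depth in reads is unknown, so no counting interval is given. The genes named were the members, *Foxf2*, every other gene of the chemokine lists reaching 1 FPKM, the 2 or 3 highest genes of each marker list, macrophage or platelet markers that were called or changed, and the 10 genes most like *Pf4*. Other marker genes, such as *Csf1r*, *C1qa*, *Itga2b* and *Gp5*, were named after their values were seen. The sum and leading genes of the epithelial list are not reported here. The members, lists and tests were chosen with earlier results of these data known. Alternatives changed the pseudocount, filter, entries summed, scaling, limma design, fold and embryos.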

Additional observations from a re-analysis of the deposited data

How the results depend on the processing

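*Pf4* was lower in the *Foxf2*-/- embryos in 11 of 11 settings, a direction that reflects how it was chosen. Its log2 difference lay between -2.68 and -0.77, the weakest without the first *Foxf2*-/- embryo. Settings of the filter and of the entries summed could not alter this gene of 1 entry and left it at -1.72. The count of changed members was 1, but 2 without a filter on low values, when *Cxcl14* joined *Pf4*, and 0 to 1 when each embryo was left out. Over all genes, limma called 7, against 11 with a pseudocount of 1, 27 with all entries summed, 12 with median ratios, 12 with quantile normalization, 17 with a separate mean for each control genotype, and 7 to 38 with an embryo left out. It called 0 without a filter on low values (1966 at an unadjusted p under 0.05) and 0 without a variance trend (1272). Genes changed against both controls numbered 216, against 73 with a pseudocount of 1, 49 at a filter of 5 FPKM and 639 without a filter. They numbered 352 with all entries summed, 53 at 2-fold, and 302 and 319 without the first and the second *Foxf2*-/- embryo. Leaving out a control left 1 control to compare with, a looser limit, here and in the count of members. Against that 1 control 411 genes were changed without the *Foxf2*+/+ embryo and 727 without the *Foxf2*+/- embryo. Marker genes of other cell types were called 0 times, against 1 with a separate genotype mean (*Hba-a2*) and 0 to 5 with an embryo left out. Chemokine system genes outside the members were called 0 times in every setting. Of 88 values recomputed for the other members 6 moved by more than the spread between embryos and 4 changed sign, all in genes below 1 FPKM. The 6 that moved were in *Cxcl14*, *Cx3cl1*, *Cxcl10* and *Cxcl1*, and the 4 changes of sign were in genes whose groups overlapped. *Ccl2* went to -0.04 with a pseudocount of 0.01, and without the second *Foxf2*-/- embryo *Ccl2* went to -0.86, *Cxcr4* to -0.18 and *Cxcl1* to 0.05. The cause of these changes was not tested. No paired analysis was possible because the labels number only the *Foxf2*-/- embryos, and the number given here to each control is only a name.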

Other observations

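Markers of further cell types are given as values, in the order *Foxf2*+/+, *Foxf2*+/-, first and second *Foxf2*-/- embryo, and limma called none of those that passed the filter. *Tnnt1*, a slow muscle troponin, had an FPKM of 1.31, 1.58, 0.831 and 0.752, and the whole muscle list summed to 2.15, 2.37, 1.20 and 1.03. *Tnnt1* reached the filter only through the controls, the group where it was high. *Actc1*, a muscle actin below the filter, had 0.506, 0.609, 0.350 and 0.155. For both genes the mutants were below the controls, at low levels. *Fabp7*, found in radial glia and Schwann cell precursors, had 0.742, 0.224, 4.58 and 0.898. The first *Foxf2*-/- embryo stood apart, and *Fabp7* reached the filter only there. *Tubb3*, a neuronal tubulin, had 2.09, 4.04, 3.62 and 4.18.

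The globins *Hba-x* (125, 674, 654 and 1877) and *Hbb-y* (152, 1033, 827 and 2202) were lowest in the *Foxf2*+/+ embryo. Endothelial markers summed to 3.08, 4.15, 3.71 and 6.00, with *Eng*, a TGF-beta co-receptor, the highest and *Egfl7*, a secreted vascular protein, next.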
